A study of Nothobranchius furzeri and Aphyosemion australe and Iconisemion striatum with 145 samples.

Results

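Protein synthesis genes were examined in embryos of the African turquoise killifish Nothobranchius furzeri at the pre-diapause stage, using 97 genes of the 25122 in the read count table. The genes were chosen by their symbols. They name eukaryotic initiation, elongation and release factors, partners of poly(A)-binding proteins, La-related proteins, aminoacyl-tRNA synthetases with their scaffold proteins, and mitochondrial translation factors. The pabpc genes of poly(A)-binding proteins were also sought, but no listed symbol matched. Each of the 4 libraries was made from a pool of 8 to 10 whole embryo bodies of the GRZ strain, freed of chorion, enveloping layer and yolk, carrying a Kupffer's vesicle and having 15 to 22 somites by the labels. The pools came from first clutches of parents 4 to 5 weeks old, most of whose embryos were expected to develop without pausing. The series also holds lyretail and red-striped killifish libraries of the same stage, but their features carry no gene names, so the genes described here could not be looked up in them, and the wild-type, control and knockout libraries of diapausing and developing embryos are not analysed here. With 1 group of 4 pools, no contrast between conditions exists for these genes. The values below therefore describe the level of a gene and its spread between pools, and no test between conditions was made.

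As background, translation begins when eIF2 brings the initiator tRNA to the small ribosomal subunit, on which eIF3 serves as scaffold, while the eIF4 factors load the capped mRNA. eIF2B restores GTP on eIF2 after each round, and kinases that phosphorylate eIF2 block eIF2B, which is the switch of the integrated stress response. Elongation relies on eEF1A, which delivers aminoacyl-tRNA, on its exchange factor eEF1B, on eEF2 and on eIF5A, and tRNA is charged by synthetases, each dedicated to an amino acid, with a separate mitochondrial set for many of them. Somite-stage embryos grow fast, and diapausing killifish embryos are known for a strong decline in protein synthesis.

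The libraries held 25985703, 41191533, 33932167 and 29822933 reads counted to genes. Levels are given as CPM, reads of the gene per 1000000 counted reads, always in the order of libraries 1 to 4, and an SD is over these 4 pools. A gene without a read in a library could have up to 3 counts there, which is 0.115, 0.0728, 0.0884 and 0.101 CPM. Since long transcripts gather more reads and no transcript lengths were used here, the levels of different genes are not compared, and sums over lists serve only to follow a list between libraries. In bulk samples of this kind, fewer cells that express a gene and less RNA per cell cannot be told apart. Counts of genes highest or lowest in a library stand against the 13479 genes at 1 CPM in every library. Of these, 34.7% were highest and 36.6% lowest in library 2, and 38.7% were lowest in library 3. Of 19 listed markers of the labelled somite stage, 8 were found in the table. All 8 reached 1 CPM in every library, against 53.7% of all genes, with summed levels of 371 to 614 CPM. Of 11 markers of enveloping layer and epidermis, the 3 found summed to 13.7 to 19.4 CPM. Of 14 of yolk or the yolk syncytial layer, the 3 found summed to 13.4 to 27.9 CPM. Of 7 of blood, the 1 found had 4.57 to 18.1 CPM. None of the markers found was at 0 in any library. Of those of yolk or the yolk syncytial layer, mttp had 0.537 to 0.766 CPM, slc40a1 9.20 to 19.98 CPM and ttr 3.69 to 8.08 CPM.

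Most of the named genes were read in all pools. Of the 97 genes, 95 reached 1 CPM in every library, or 97.9%, against 53.7% of all genes in the table. A level of 10 CPM in every library was reached by 81 of 97, against 26.4% of all genes, and 100 CPM by 22 of 97, against 4.78%. Together the 97 genes took 1.17%, 1.48%, 1.08% and 1.21% of all reads, a mean of 1.23% ± 0.174 (SD, n = 4). The exact 95% binomial interval, which covers counting error only, was 1.16% to 1.17% in library 1 and similarly narrow in the others. The 70 genes of cytosolic ribosomal proteins took 10.2%, 10.1%, 15.9% and 12.3%. The highest share thus fell in library 2 for the translation factors and in library 3 for the ribosomal proteins. By role, the 32 listed initiation factors, of the eIF2 and eIF5, eIF2B, eIF3 and eIF4 groups, took 0.663%, 0.823%, 0.570% and 0.655%. The 4 elongation factors took 0.212%, 0.252%, 0.260% and 0.229% and the 31 synthetases 0.0952%, 0.114%, 0.0859% and 0.0989%. Initiation factors listed only by a LOC number, such as eif1 and eif3c, are not among the 32. These shares add up reads over different numbers of genes of different lengths, and say nothing about relative numbers of molecules.

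**Figure D1:**
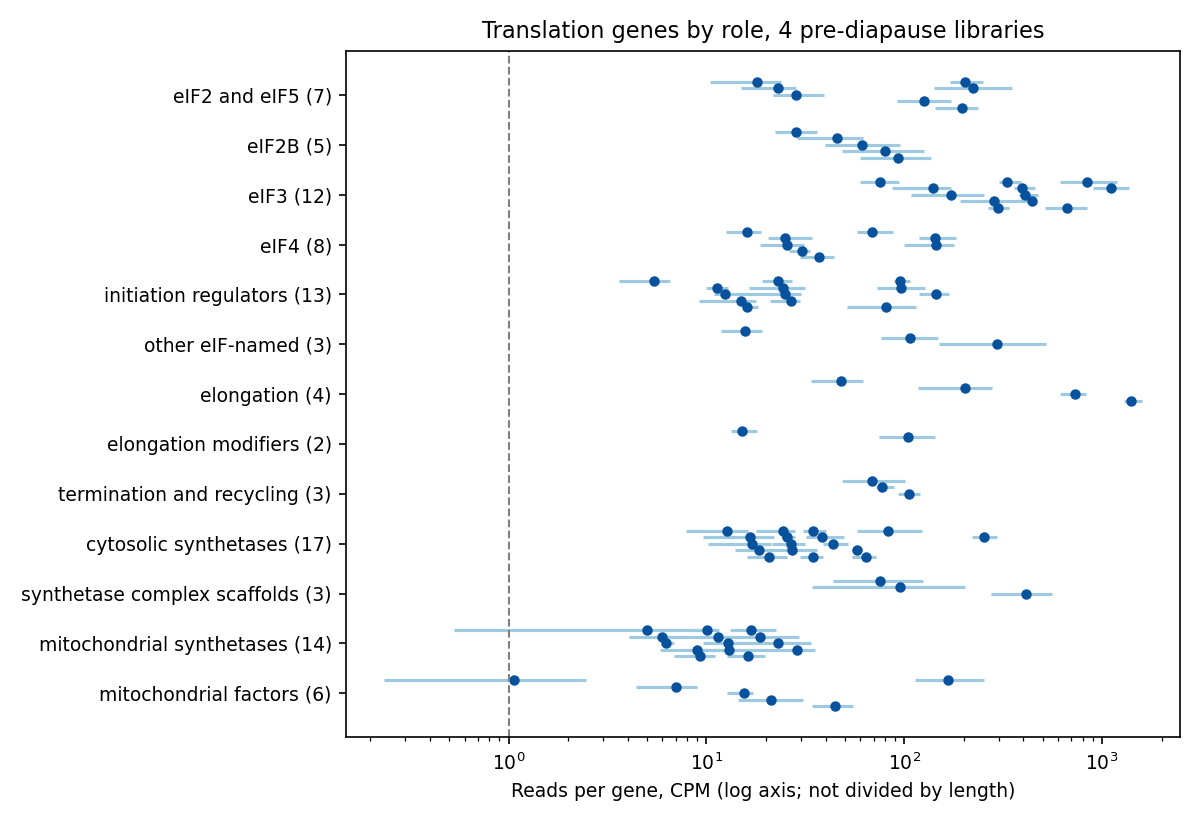
Each point is the mean over 4 pre-diapause libraries of 1 of the 97 genes, in CPM on a log axis, and each line runs over its lowest to highest library; rows are roles, with the number of genes in brackets, and the dashed line marks 1 CPM. Only fars2 and gfm2 have lines that cross 1 CPM, and eef1g has the highest mean, 1407 CPM.

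The eIF2 complex was read in all pools, but its subunits were not spread alike. The alpha subunit eif2s1, whose phosphorylation stops initiation, had 196, 251, 170.5 and 189.7 CPM, and the tRNA-binding gamma subunit eif2s3 had 142, 351, 157 and 238 CPM. Both were highest in library 2. The beta subunit eif2s2 had 199.9, 143, 209.6 and 235 CPM and was lowest in library 2, where the other subunits were highest. The GTPase-activating factor eif5 had 92.5, 173, 92.3 and 145 CPM, and the subunit-joining GTPase eif5b had 14.9, 22.3, 26.3 and 28.5 CPM. Outside the classical route, eif2a, an alternative carrier of initiator tRNA, had 10.4, 23.8, 16.5 and 21.2 CPM and eif2d 26.6, 39.3, 21.7 and 26.5 CPM. The lowest library for eif2a, eif2s3 and eif5b was library 1 under each scaling of the libraries tried, which were library totals, the trimmed mean of M-values (TMM) and median-ratio size factors. For eif2s1 and eif5 the lowest library changed with the scaling.

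All 5 subunits of eIF2B, the exchange factor of eIF2, had their highest level in library 2 under each scaling. Their lowest lay in library 3, except that eif2b5 was lowest in library 1 with TMM. Of all genes, 34.7% were highest in library 2 on library totals, 36.3% with TMM and 36.4% with size factors. The shares lowest in library 3 were 38.7%, 25.3% and 25.9%. Of the regulatory subunits, eif2b1 had 47.5, 61.6, 28.6 and 45.2 CPM. The second, eif2b2, had 76.97, 137, 60.03 and 96.7 CPM. The last of them, eif2b4, had 66.4, 125, 48.6 and 80.4 CPM. In all 3, library 4 lay between libraries 2 and 3. Of the catalytic pair, eif2b3 had 51.5, 94.9, 39.99 and 57.2 CPM and eif2b5 25.5, 36.3, 22.2 and 29.1 CPM. Library 2 exceeded library 3 by 1.64-fold for eif2b5 and by up to 2.58-fold for eif2b4. The SD of log2 levels over pools lay between 0.30 and 0.57 for these subunits, with a median of 0.50.

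Subunits of eIF3, the scaffold on the small subunit, were read at a summed 5172, 6313, 4346 and 4819.7 CPM over the 12 listed. The most reads fell on eif3g, an RNA-binding subunit, with 1114, 1366, 899 and 1082 CPM, and on eif3f, with 906, 1182, 616 and 669.6 CPM. For 7 of the 12 the lowest library was library 3, against 38.7% of all genes. That number fell to 3 with TMM, against 25.3% of all genes, and to 2 with size factors, against 25.9%. For 9 the highest library was library 2 under each scaling, against 34.7% of all genes on library totals. One exception, chosen like eif3d and eif3l after the values were seen, was eif3k, the steadiest of the 12, with 461, 438, 450.1 and 416 CPM, an SD of 0.063 on the log2 scale. Another was eif3j, a loosely bound subunit, with 148, 86.9, 151 and 173 CPM, whose lowest library was library 2. The third was eif3a, the largest subunit, with 59.9, 65.4, 82.3 and 93.8 CPM, which was higher in libraries 3 and 4 than in libraries 1 and 2. At the other end, eif3d, which can bind the cap of some mRNAs, had 108, 253, 129.6 and 198 CPM, and eif3l, the partner of eif3k, had 250.2, 427, 191 and 270.4 CPM. These differed 2.34-fold and 2.23-fold between pools, against 1.11-fold for eif3k. In eif3i, with 388, 475, 379.7 and 387 CPM, library 2 stood apart from the other 3 on library totals.

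Among the 8 eIF4 factors under the name rule, none was highest in library 2 on library totals, against 34.7% of all genes. Of the 8, 5 were highest in library 4, against 18.2% of all genes, and 3 in library 1, against 33.1%. With TMM 5 were highest in library 4, 2 in library 1 and 1, eif4e3, in library 2. With size factors 4 were highest in library 4, 3 in library 1 and 1 in library 3. Of eIF4 entries listed only by a LOC number, eif4a1b and another eif4e3 were highest in library 2 on library totals. Those for eif4e1c, eif4ea, eif4eb, eif4g1a and eif4g2b were not. The scaffold that joins cap and ribosome, eif4g1, had 23.9, 18.7, 27.997 and 31.3 CPM and its copy eif4g3 16.1, 12.6, 16.7 and 18.98 CPM. Both had their lowest level in library 2. The related eif4g2, which lacks the site for eIF4E, had 183, 118, 134 and 138 CPM. Among the cap-binding proteins, the repressor eif4e2 had 42.5, 32.5, 29.6 and 44.3 CPM and eif4e3 33.5, 31.9, 26.2 and 30.5 CPM. The helicase eif4a2 had 87.3, 63.6, 66.5 and 57.5 CPM, lowest in library 4. Its activators were highest in library 4 instead, eif4h with 99.4, 162, 138 and 179 CPM and eif4b with 20.6, 22.02, 23.2 and 34.03 CPM. The highest pool exceeded the lowest by less than 2-fold for each of the 8, from 1.28-fold for eif4e3 to 1.80-fold for eif4h.

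The 13 genes grouped as regulators of initiation include the La-related genes described below. Of the 13, 8 were lowest in library 2, against 36.6% of all genes, with 6 lowest there under either other scaling. The number highest there was 3, against 34.7% of all genes. Of the repressors that bind eIF4E, eif4ebp2 had 28.2, 28.4, 21.04 and 29.6 CPM and eif4ebp3 had 159, 119, 135 and 167 CPM. In eif4ebp2, library 3 stood below the other 3. Of the eIF2 kinases, the heme-regulated eif2ak1 had 23.9, 31.6, 16.5 and 25.8 CPM, the endoplasmic reticulum kinase eif2ak3 11.1, 12.8, 9.90 and 11.5 CPM and the amino acid sensor eif2ak4 27.1, 19.2, 24.9 and 21.3 CPM. The eIF4E transporter eif4enif1 had 18.3, 15.1, 15.6 and 15.1 CPM, with library 1 above the rest on library totals but library 3 highest with TMM. Of the inhibitors that displace the poly(A)-binding protein from the mRNA tail, paip2 had 108, 127, 72.6 and 78.3 CPM and paip2b had 51.2, 78.8, 79.9 and 114 CPM. They did not share an order: the highest library of paip2b was library 4 and its lowest library 1, whereas paip2 was highest in library 2 and lower in libraries 3 and 4 than in 1 and 2. The ratio of paip2 to paip2b differed 3.06-fold between pools, the most among the 5 pairs of copies compared, against 1.13-fold for eif4g1 to eif4g3, the least.

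The 4 La-related proteins listed are counted among the regulators above. Each was lowest in library 2 on library totals, against 36.6% of all genes. All but larp7 were lowest there under the other scalings too. The poly(A)-binding larp4 had 29.4, 10.9, 28.97 and 30.04 CPM and its copy larp4b 17.8, 9.15, 17.8 and 15.1 CPM. In both, the other 3 libraries lay close together and above library 2, which fell outside the rest most clearly in larp4. The binder of terminal oligopyrimidine mRNAs, larp1, had 5.46, 3.62, 6.51 and 6.27 CPM, again with its lowest level in library 2. The fourth, larp7, which binds the 7SK RNA and acts in transcription, had 90.6, 89.3, 94.2 and 107 CPM, nearly level over the pools. Among entries listed only by a LOC number, larp1b (LOC107391896), with 31.9, 13.8, 27.8 and 25.3 CPM, and larp4ab (LOC107384038), with 37.3, 22.4, 31.8 and 35.6 CPM, were also lowest in library 2. Among members with an eIF name but another function, eif6, which keeps the ribosomal subunits apart, had 164, 521, 150.2 and 336 CPM, a difference of 3.47-fold between pools with libraries 2 and 4 above 1 and 3. The exon junction helicase eif4a3 had 76.3, 149, 87.6 and 116 CPM and eif1ad 15.9, 15.97, 11.9 and 19.1 CPM.

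Elongation factors split into a steady and an uneven pair. The eEF1B subunits eef1g, with 1353, 1394, 1588 and 1292 CPM, and eef1b2, the exchange subunit, with 616, 788, 829 and 677 CPM, were both highest in library 3. Their means were 1407 ± 128 CPM and 727 ± 97.96 CPM (SD, n = 4). The other exchange subunit, eef1d, had 118, 277, 149 and 263 CPM, 202 ± 80.1 CPM, with libraries 2 and 4 about level and well above 1 and 3. The gene listed as eif5a, a factor that needs the amino acid hypusine to act, had 37.9, 62.1, 33.9 and 58.1 CPM, again with libraries 2 and 4 above 1 and 3. Another entry, described below, carries the name eif5a in RefSeq, and which entry is which copy was not settled. eEF2 and eEF1A have no member under the name rule and eEF2 is not analysed here. The modifiers of elongation factors were eef1akmt1, a lysine methyltransferase of eEF1A, with 101, 142, 74.6 and 102 CPM, and the inhibitory eEF2 kinase eef2k, with 18.05, 13.3, 14.6 and 14.7 CPM, the first highest and the second lowest in library 2. For termination, the release factor etf1, which reads the stop codon, had 99.9, 111, 92.95 and 119.7 CPM, and its GTPase partner gspt1 had 89.1, 71.6, 74.5 and 74.8 CPM. These differed 1.29-fold and 1.24-fold between pools, whereas the recycling ATPase abce1 had 48.3, 100.5, 52.1 and 73.3 CPM, a difference of 2.08-fold.

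Cytosolic synthetases, all 17 of them, reached 1 CPM in every library. The most reads fell on kars, the lysine enzyme, with 272, 296, 219 and 229 CPM, and gars, the glycine enzyme, with 61.4, 123, 57.9 and 89.3 CPM. In mammals both also serve mitochondria. The fewest fell on nars, for asparagine, with 7.85, 16.3, 11.8 and 15.1 CPM, and rars, for arginine, with 9.66, 21.9, 16.2 and 18.5 CPM. Both were lowest in library 1. Orders between pools varied: 7 of the 17 were highest in library 2 and 6 were lowest there, against 34.7% and 36.6% of all genes. Among those lowest in library 2, chosen after their values were seen, were iars for isoleucine, with 36.2, 17.1, 28.5 and 26.6 CPM, cars for cysteine, with 15.6, 10.2, 20.9 and 21.2 CPM, mars for methionine, with 19.3, 16.05, 25.6 and 21.9 CPM, and lars for leucine, with 49.6, 31.8, 36.4 and 35.6 CPM. The steadiest was sars for serine, with 57.3, 57.9, 61.2 and 54.5 CPM, which was chosen in the same way. The 3 scaffold proteins of the multi-synthetase complex were each highest in library 2 and lowest in library 3, under all 3 scalings. As non-catalytic members they hold the enzymes together. Over these scalings, 34.7% to 36.4% of all genes were highest in library 2 and 25.3% to 38.7% lowest in library 3. aimp1 had 52.6, 124, 43.9 and 82.5 CPM, aimp2 64.1, 203, 34.2 and 80.5 CPM and eef1e1 459, 555, 276 and 352 CPM. The 5.94-fold difference of aimp2 was the widest of the 95 genes that reached 1 CPM in every library.

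Mitochondrial synthetases had 13 of 14 genes at 1 CPM in every library, against 53.7% of all genes. Of these 13, 12 were highest in library 2 under each scaling, against 34.7% to 36.4% of all genes. At the upper end of read number were rars2, with 29.2, 35.5, 19.7 and 30.3 CPM, and pars2, with 21.5, 33.9, 12.5 and 23.9 CPM. At the lower end were aars2, with 4.08, 7.62, 5.10 and 7.14 CPM, and fars2, the mitochondrial phenylalanine enzyme, with 0.731, 11.3, 0.530 and 7.54 CPM. The exact 95% Poisson intervals of fars2, which cover counting error only, were 0.440 to 1.14 CPM from 19 counts in library 1, 10.3 to 12.4 CPM from 466 counts in library 2, 0.314 to 0.838 CPM from 18 counts in library 3 and 6.59 to 8.60 CPM from 225 counts in library 4. Libraries 2 and 4 were thus separated from 1 and 3 well beyond counting error, by 21.3-fold between the extremes, on few reads. Within the mitochondrial factors, the elongation factor tufm had 113, 253, 113 and 187 CPM and its exchange factor tsfm 36.1, 54.99, 34.2 and 52.7 CPM. Of the initiation factors, mtif2 had 4.43, 8.96, 7.40 and 7.41 CPM and mtif3 had 14.4, 30.9, 14.5 and 24.7 CPM, and the translocase gfm1 16.4, 17.2, 12.7 and 15.7 CPM. The recycling factor gfm2 was the second gene below the limit, with 0.885, 2.48, 0.236 and 0.671 CPM from 23, 102, 8 and 20 counts. All 6 were highest in library 2.

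The balance of cytosolic over mitochondrial enzyme can be followed between pools without lengths, because the length of each gene cancels when its ratio is set against its own mean. For 10 amino acids both enzymes were listed. In 7 of the 10, library 2 had the lowest ratio, with a median over pairs of -0.54 on the log2 scale, against 0.10, 0.29 and 0.03 in libraries 1, 3 and 4. Since 12 of the 13 mitochondrial synthetases at 1 CPM were highest in library 2, this count is not independent of that order. No share over all genes was computed for such ratios. The widest difference was that of cars/cars2, for cysteine, at 0.52, -1.69, 1.15 and 0.02 relative to its own mean, 7.13-fold between pools. For iars/iars2 the values were 0.85, -1.04, 0.27 and -0.08, and for mars/mars2 -0.47, -0.85, 0.67 and 0.66. In nars/nars2 and rars/rars2 the lowest ratio lay in library 1. The median range over the 10 pairs was 1.24 on the log2 scale, and 0.77 without library 1 and 0.89 without library 2. A range over fewer libraries cannot be larger, so the direction of this change was fixed.

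**Figure D2:**
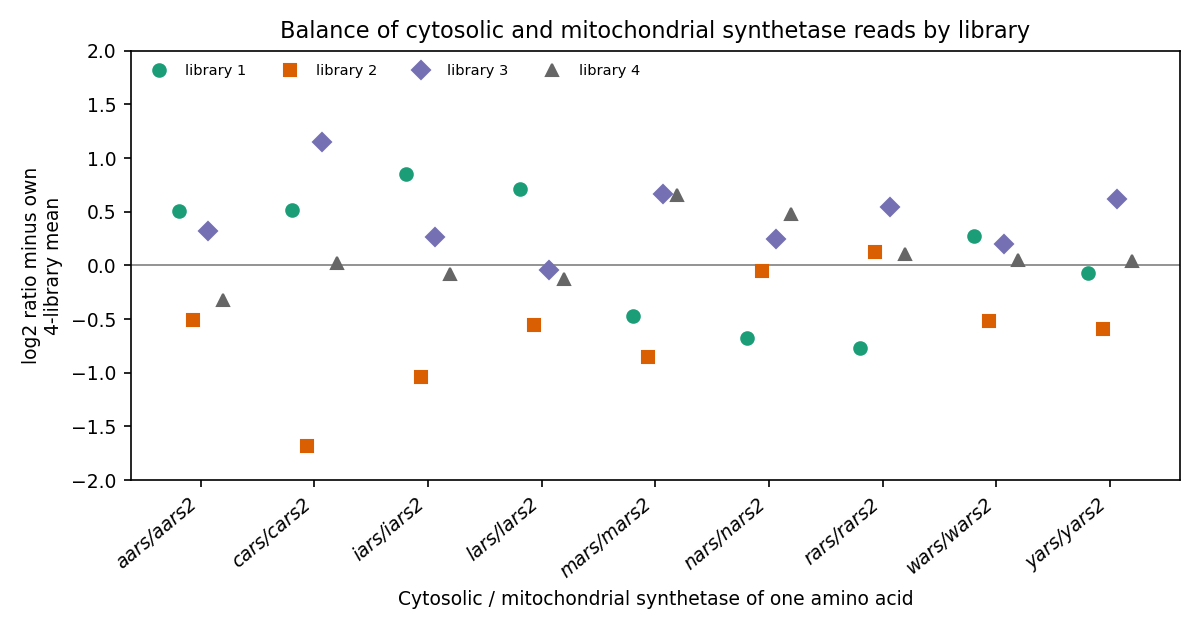
For 9 of the 10 amino acids, the log2 ratio of reads of the cytosolic over the mitochondrial synthetase in each of 4 libraries, minus the mean of the pair over the libraries; each point is 1 library. Library 2 is the lowest point in 7 of these pairs, reaching -1.69 for cars/cars2.

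Set against all genes, the order of the pools was uneven. Of the 95 genes at 1 CPM in every library, 55 had their highest level in library 2, or 57.9%, against 34.7% of the 13479 genes of the table that reached this limit. Library 1 was highest for 13 of 95, against 33.1% of all genes. The count highest in library 2 was 57 with TMM and 56 with size factors, against 36.3% and 36.4% of all genes. The lowest level lay in library 3 for 44 of 95, or 46.3%, against 38.7% of all genes, but this count fell to 21 with TMM, against 25.3% of all genes. Library 2 was lowest for 21 of 95, or 22.1%, against 36.6% of all genes. A difference of at least 2-fold between the highest and the lowest pool was seen in 29 of 95, or 30.5%, against 36.1% of all genes, which is near this background. The median SD over pools was 0.32 on the log2 scale for the 95 genes and 0.34 for all genes, where counting noise alone gives medians of 0.041 and 0.068. Without library 2, 6 of 95 genes differed by at least 2-fold, against 12.9% of all genes. The 6 were aimp2, cars2, eef1d, eif2a, eif6 and paip2b.

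**Figure D3:**
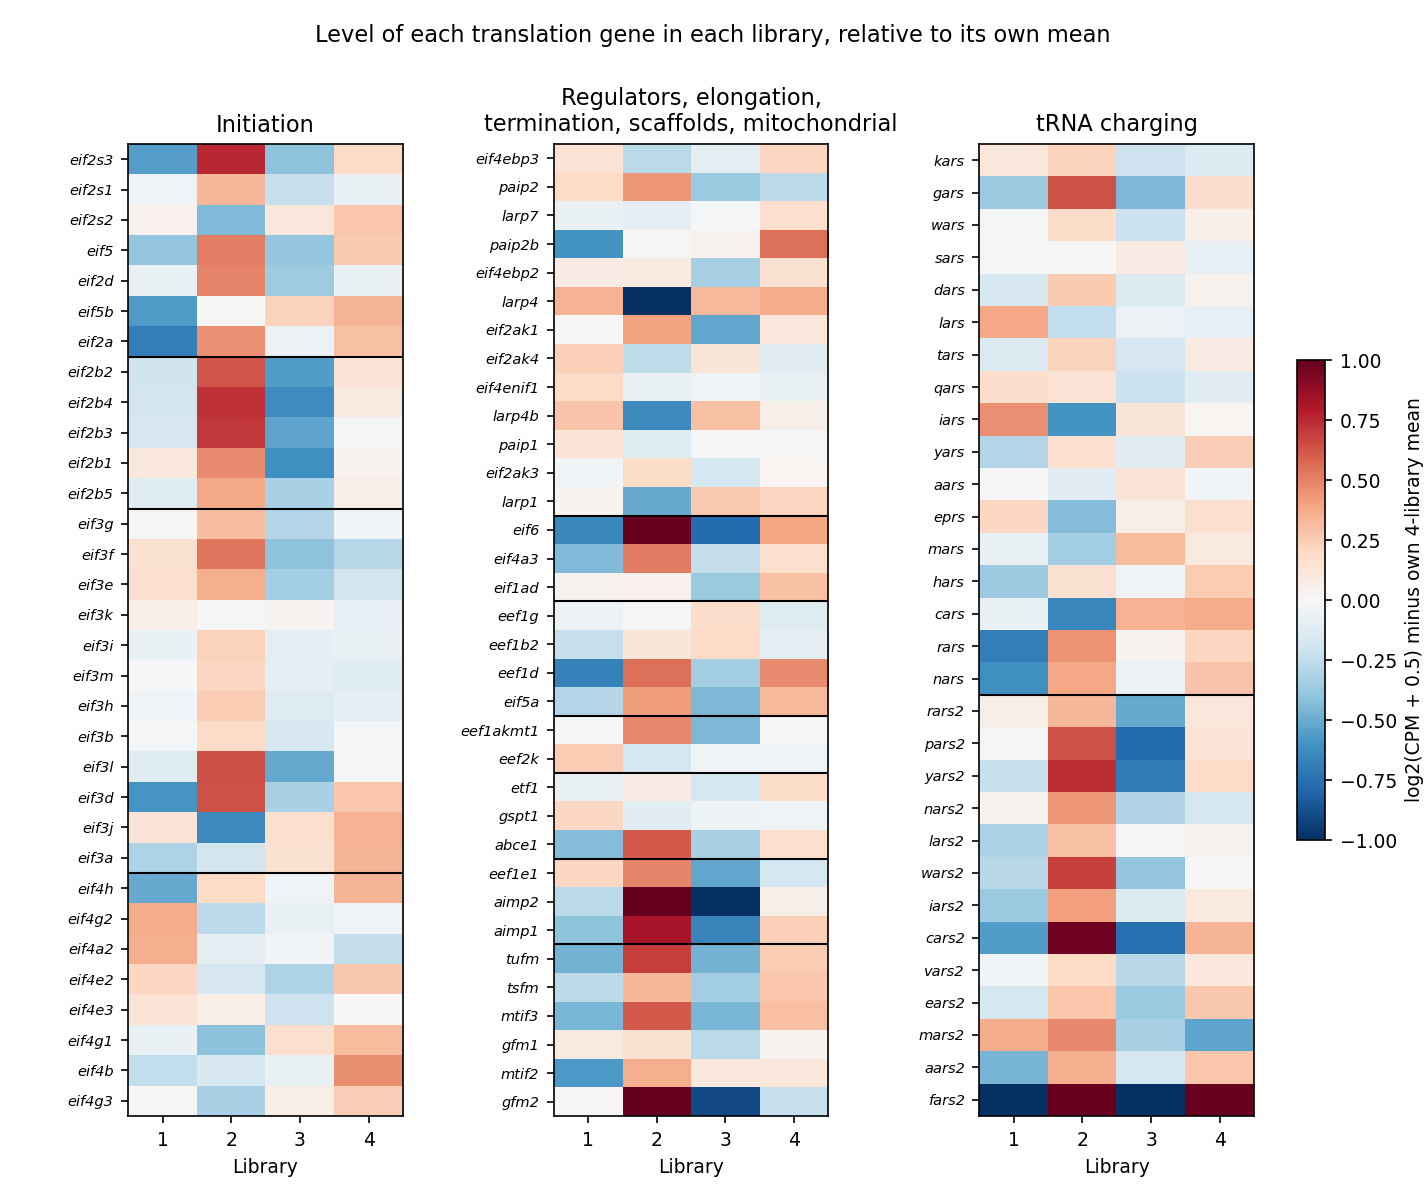
Colours give log2(CPM + 0.5) of 96 of the 97 genes in each of 4 libraries minus its own mean over the libraries, with red above and blue below and the scale ending at -1 and 1; black lines divide roles. All 5 eIF2B subunits, the 3 scaffolds and most mitochondrial genes are red in library 2, whereas most eIF4 factors are blue there.

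**Figure D4:**
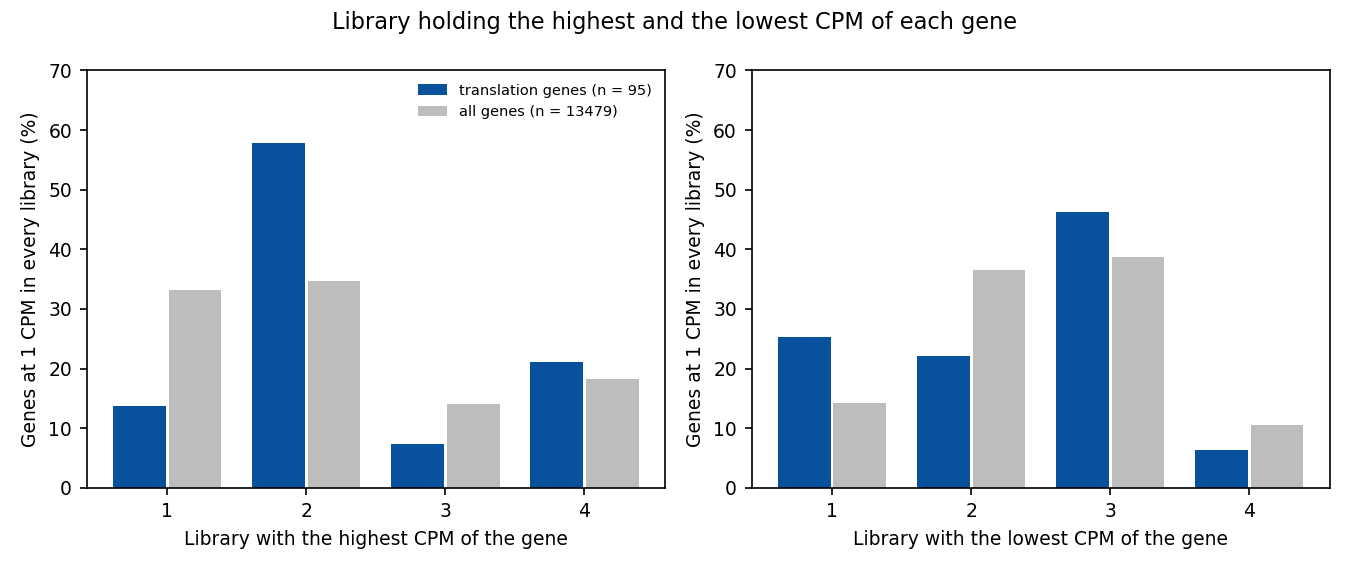
Share of genes, in percent, with their highest (left) and lowest (right) CPM in each library, for 95 translation genes (blue) and 13479 genes of the table (grey), all at 1 CPM or more in every library. Library 2 is highest for 57.9% of the translation genes and 34.7% of all genes.

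Relative to its own mean, the median initiation factor stood at -0.05, 0.24, -0.18 and 0.05 on the log2 scale in libraries 1 to 4, the median elongation factor at -0.26, 0.27, -0.08 and 0.11 and the median synthetase at -0.08, 0.25, -0.15 and 0.10, against 0.08, 0.01, -0.11 and 0.06 for all genes at 1 CPM in every library. Charging minus initiation differed by no more than 0.05 in any pool. Elongation minus initiation was -0.21 in library 1 and between 0.03 and 0.10 in the others, on 4 elongation factors. Medians of the groups within and beside these roles lay further apart. In library 2 the median stood at 0.63 for eIF2B, 0.83 for the scaffolds, 0.46 for the eIF2 and eIF5 factors, 0.41 for mitochondrial synthetases and 0.36 for mitochondrial factors. It stood at 0.24 for eIF3, 0.15 for cytosolic synthetases and -0.16 for the eIF4 factors. Cytosolic ribosomal protein genes had -0.20, -0.37, 0.47 and 0.08. Of these 70 genes, 54 were highest in library 3 and 47 lowest in library 2, against 14% and 36.6% of all genes. Mitochondrial ribosomal protein genes had 0.06, 0.04, -0.06 and -0.0027, with 31 of 74 highest in library 2, against 34.7% of all genes. Library 2 was also the deepest, and its 10 most abundant genes took 7.15% of reads against 6.20% to 6.32% in the others. The summed somite-stage markers had 395, 614, 371 and 589 CPM, with libraries 2 and 4 above 1 and 3. This split was that of sox3, myf5, meox1, tcf15 and myod1, whereas sox2 had 18.9, 9.44, 23.8 and 26.2 CPM, lowest in library 2, msgn1 had 72.3, 68.8, 60.6 and 80.6 CPM, and myog had 21.7, 21.7, 16.8 and 21.4 CPM. The blood marker tal1 had 4.77, 15.4, 4.57 and 18.1 CPM, also higher in libraries 2 and 4. The yolk markers summed to 27.9, 13.4, 26.7 and 26.2 CPM and were lowest in library 2. The part of depth, of abundant genes and of these cell types in the order of the pools was not tested.

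Several central factors are listed in the table only by a LOC number and so fall outside the name rule. A RefSeq symbol that matches the rule was found for 27 such entries, of which 23 reached 1 CPM in every library. Of these 23, 11 were highest in library 2, against 34.7% of all genes. The entry LOC107383133, named eif5a in RefSeq, had 1518, 2305, 1686 and 2244 CPM, while the gene the table itself lists as eif5a is a different entry. The start-codon factor eif1 (LOC107396491) had 1198, 1262, 926 and 1106 CPM, and the helicase eif4a1b (LOC107384710) 656, 769, 575 and 669.6 CPM, both highest in library 2. Cap-binding proteins among them were eif4e1c (LOC107375702), with 554, 318, 353 and 428 CPM, eif4ea (LOC107379645), with 105, 56.3, 62.5 and 83.02 CPM, and eif4eb (LOC107392606), with 50.9, 84.8, 36.7 and 91.004 CPM. On library totals, the first 2 were highest in library 1 and lowest in library 2, as was eif4g1a (LOC107383968), with 129, 73.8, 123 and 117 CPM. The order of these entries was not followed under the other scalings. The remaining large eIF3 subunit, eif3c (LOC107387967), had 52.9, 102, 70.8 and 78.6 CPM. One eEF1A entry, eef1a1l3 (LOC107382544), had 0, 4, 0 and 2 counts and was thus barely read. Of the other eEF1A genes named this way, eef1a1a (LOC107375892) had 7.23, 5.54, 6.69 and 4.19 CPM and eef1a1l2 (LOC107394932) 2.00, 3.28, 4.18 and 4.02 CPM, and reads that align to several near-identical copies were removed before counting. LOC entries without a RefSeq symbol were not searched, so these values do not give the level of eEF1A as a whole. The poly(A)-binding protein pabpc4 (LOC107392531) had 28.1, 47.4, 30.97 and 39.2 CPM. All of these entries were chosen after the names were matched.

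Enzymes that modify or support the machinery were read from a list of related genes. Of all genes, 53.7% reached 1 CPM in every library, and 34.7% of those were highest in library 2. For factor modification, 7 of 8 listed genes were found, all 7 at 1 CPM in every library and 6 of them highest in library 2. The hypusine pathway, which activates eIF5A, had dhps at 55.7, 66.2, 33.4 and 49.2 CPM and dohh at 29.1, 95.8, 22.4 and 50.1 CPM. Of the diphthamide enzymes, which modify eEF2, dph5 had 42.02, 135, 37.8 and 76.3 CPM. Charging genes outside the name pattern numbered 10 in the table, with 9 at 1 CPM in every library and 6 highest in library 2. The cytosolic phenylalanine enzyme has subunits farsa, with 51.99, 87.03, 47.8 and 57.7 CPM, and farsb, with 17.4, 43.6, 22.8 and 39.5 CPM, which differed 1.82-fold and 2.50-fold between pools, against 21.3-fold for fars2. A 9.62-fold difference was seen in qrsl1, a subunit of the mitochondrial glutaminyl-tRNA amidotransferase, with 6.04, 29.8, 3.09 and 11.2 CPM. Its partner subunits did not share this difference. The subunit gatb differed 1.72-fold and was highest in library 2, whereas gatc, with 16.1, 7.23, 8.87 and 8.75 CPM, was lowest there. All 3 mitochondrial termination genes found reached the limit, 2 of them highest in library 2, and all 8 genes of ribosome rescue and reinitiation did, 2 of them highest in library 2.

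Of the integrated stress response list, 5 of 15 genes were found and all 5 reached 1 CPM in every library, against 53.7% of all genes. In mammals its transcription factor ATF4 drives asns, which makes asparagine, and chac1, which degrades glutathione. In these pools asns had 26.2, 92.3, 24.7 and 50.2 CPM and chac1 369, 651, 246 and 397 CPM. Both were highest in library 2 and lowest in library 3 on library totals. The pro-apoptotic ddit3 had 2.81, 1.51, 1.44 and 2.18 CPM, highest in library 1. The eIF2 kinase activator gcn1 had 61.3, 58.9, 54.8 and 49.7 CPM, nearly level. On the mTORC1 and MNK list, 8 of 19 genes were found, all at 1 CPM in every library, against the same 53.7%. Of these 8, 2 were highest in library 2, against 34.7% of all genes. The kinase mtor had 46.9, 29.4, 41.3 and 39.7 CPM, lowest in library 2, and its substrate rps6kb1 19.7, 50.4, 19.6 and 36.2 CPM, highest there. The eIF4A inhibitor pdcd4 had 51.3, 50.3, 52.3 and 50.2 CPM, a difference of 1.04-fold between pools.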

How the data were processed

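RNA-seq of pooled killifish embryo bodies was read from the deposited gene table of 4 African turquoise libraries. Its values are read counts, which the authors made by trimming with Trim Galore 0.4.5, aligning with STAR 2.7.1a, keeping reads with a single locus by SAMtools 1.5 and counting with featureCounts of Subread 2.0.1. Near-identical copies therefore lose shared reads. The study's resource list names Nfu_20140520 as the African turquoise killifish reference genome. cDNA came from the SMART-Seq v4 low-input kit. Columns were matched to samples by name.

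CPM on library totals were computed here in Python 3.11.15 (scipy 1.17.1 for intervals; numpy 2.4.6; pandas 2.3.3), and the pseudocount for log2 values was 0.5 CPM. Scaling with edgeR 4.0.16 (TMM) or DESeq2 1.42.0 (size factors) in R 4.3.3, other limits and pseudocounts, and leaving out each library were the alternatives. Only the SD over libraries and the call of the highest library were tested on simulated data, the call in genes strongly raised in library 2. The other measures were not. Ratios within pairs used counts plus 1. Every pair of libraries differed by more than counting noise (chi-square per degree of freedom of at least 82.9). The labels do not say whether pools share parents. The members and lists were chosen with earlier results of these data known. Genes named are the 2 with most and the 2 with fewest reads per role, all in roles of 6 or fewer, all eIF2, eIF4E, eIF4G, eIF4A and eEF1B members, pairs of copies, genes below 1 CPM and genes with a library standing apart. Further genes were named as exceptions or from the related lists, after their values were seen. Symbols of LOC entries came from the RefSeq gene table of assembly NfurGRZ-RIMD1, used for names only; 64 of the 97 members have the same symbol there. Columns of other samples in this table numbered 0. No transcript lengths or sequences were used. One gene is included in counts and medians but is not reported here by name, and is left out of the plots that name genes.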

Additional observations from a re-analysis of the deposited data

Results flagged for a closer look

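Each of the 97 genes and 19 summed levels was screened for a library standing apart from the other 3, which is the case by chance in about 1 in 20 groups. For 4 of the 97 genes, or 4.12%, the gap between the extreme library and its nearest neighbour was past Dixon's 95% limit against the whole range. This number is near the 1 in 20 that arises by chance. The screen used library totals only and was not repeated under the other scalings. eif3i had 474.8 CPM in library 2 against 379.7 to 388 CPM in the others. eif4ebp2 had 21.0 CPM in library 3 against 28.2 to 29.6 CPM. eif4enif1 had 18.3 CPM in library 1 against 15.1 to 15.6 CPM, on library totals; with TMM its highest library was library 3. larp4 had 10.9 CPM in library 2 against 29.0 to 30.0 CPM, the widest gap of the 4 as a share of the range. Among the summed levels, mitochondrial ribosomal protein genes had 18752 CPM in library 1 against 17549 to 17673 CPM, again on library totals only.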

How the results depend on the processing

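The number of genes at 1 CPM in every library, 95, was 95 under both other scalings and with any library left out, 96 at 0.5 CPM or at 10 counts, 92 at 5 CPM, 81 at 10 CPM and 22 at 100 CPM in every library. Adding the LOC entries with a RefSeq name gave 118. Genes highest in library 2 numbered 55, and 57 with TMM, 56 with DESeq2 size factors and 66 with LOC entries. The library that is lowest depended on the scaling. Library 3 held the lowest level for 44 of 95 genes on library totals, 21 with TMM and 25 with size factors. Library 1 held it for 24, 44 and 36. Over all genes, library 3 held the lowest level for 38.7%, 25.3% and 25.9%, and library 1 for 14.2%, 24.5% and 21.9%. These scalings moved the median of all genes in library 3 from -0.11 to 0.01 on the log2 scale. Genes differing by at least 2-fold numbered 29, or 29 and 30 with the other scalings and 6 to 27 with each library left out, with 6 without library 2. The median SD over pools ranged from 0.25 to 0.36, and the share of reads from 1.15% to 1.29%, with each library left out. For the pairs of copies the median range, 0.61, was 0.29 to 0.61, with 0.29 without library 2, and for cytosolic over mitochondrial enzymes, 1.24, it was 0.77 to 1.24, with 0.77 without library 1. Ranges and 2-fold counts cannot rise when a library is left out, so only the size of these changes is informative. The alternatives for the order of the pools, the 2-fold counts, the pair ranges and the limits of 10 and 100 CPM were added after the data were seen. Differences between roles in level and tests of pair ratios against 0 were planned per coding length and were not run, since no lengths were at hand. No paired analysis was possible because the genes are read in 1 group only. At library totals of 25985703 to 41191533 reads, counting alone gave a median SD of 0.041 on the log2 scale over the 95 genes, against 0.32 over pools. It was a larger part for some genes, such as paip1, with 0.072 against 0.104. The genes fars2 and gfm2 had as few as 18 and 8 counts in a library.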
